A study of Chlorocebus sabaeus with 3 samples.

Results

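The laminin chains and integrin subunits were followed in cell-free RNA of vervet monkey (Chlorocebus sabaeus) amniotic fluid. Members were chosen by gene name alone, with no threshold on their values. They are the laminin alpha, beta and gamma chains and integrin alpha and beta subunits listed in the files under their own symbol. This gave 37 of 33994 listed genes, of which 12 were laminin chains, 17 integrin alpha subunits and 8 integrin beta subunits. RNA was extracted from the supernatant of the fluid and sequenced in 3 samples. The labels give 1 sample as stillborn (sex label M), 1 as spontaneous abortion (sex label NA) and 1 as alive (sex label F). All 3 shared the same fluid, extraction and library chemistry, and the sources used here give no treatment, strain or gestational age. Each status is thus a single sample, so a difference between libraries may be one between animals, and no p-value is given.

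Laminins are cross-shaped glycoproteins of the basement membrane, each assembled from an alpha, a beta and a gamma chain. Integrins are heterodimers of an alpha and a beta subunit that tie such matrix, or other cells, to the cytoskeleton. In the amnion and in fetal skin, laminins that carry LAMA3 and LAMB3 anchor epithelium to its basement membrane through the integrin of ITGA6 and ITGB4 in the hemidesmosome. ITGB2 and its alpha partners are carried by leukocytes.

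The libraries held 17749954 (stillborn), 29926352 (spontaneous abortion) and 20220899 (alive) assigned reads, and at least 10 reads were found for 14876, 15818 and 14987 genes. Where 3 values follow each other they stand in that order. Levels are given as RPKM, reads scaled to gene length and to the reads of the library, as deposited. Ratios between libraries were computed from whole reads worked back from the RPKM values, after trimmed-mean (TMM) scaling with factors of 0.936, 1.02 and 1.05. Brackets after a ratio hold its exact Clopper-Pearson 95% interval, which covers counting error of reads only. A gene was called apart when its ratio was at least 4-fold, its interval excluded 1 and the higher library held at least 30 reads. A wider count used 2-fold in place of 4-fold. In cell-free RNA, release from more cells of a type and more RNA from each cell cannot be told apart.

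The summed RPKM of the 12 laminin chains was 74.5 in the stillborn library, 84.7 after spontaneous abortion and 89.9 in the alive one. The 25 integrin subunits summed to 80.7, 70.7 and 54.8. The laminin sum was thus lowest in the stillborn library and the integrin sum highest there. These sums are not TMM-scaled, and each follows its largest gene. LAMB1 was at 28.8 in the stillborn and 57.4 in the alive library, and ITGA6 at 37.2 and 18.8. Single members did not all follow the sums, and the laminin chains LAMA3 and LAMB3 were highest in the stillborn library. Of the 37 members, 35, 32 and 32 were above 0, and 16, 14 and 13 reached RPKM 1. LAMC3, a laminin gamma chain, and ITGB7, the beta partner of ITGAE and ITGA4 on lymphocytes, had 0 reads in all 3 libraries.

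RPKM divides by a gene length, and that length could be read back from the values together with the reads. It is the smallest length that fits, and may be a fraction of the length used where a gene's reads share a common factor. It ran from 2173 bases for ITGAD, which had reads in the stillborn library alone, to 40325 for LAMA3. It was 5812 for LAMB1, 3771 for ITGB1, 25705 for ITGB6 and 28732 for ITGB4. The length for LAMA3 exceeds that of a laminin messenger RNA, and the sources used here do not say how the authors formed the lengths. Levels of different genes, and their order, rest on these lengths. Ratios of 1 gene between libraries do not.

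**Figure D1:**
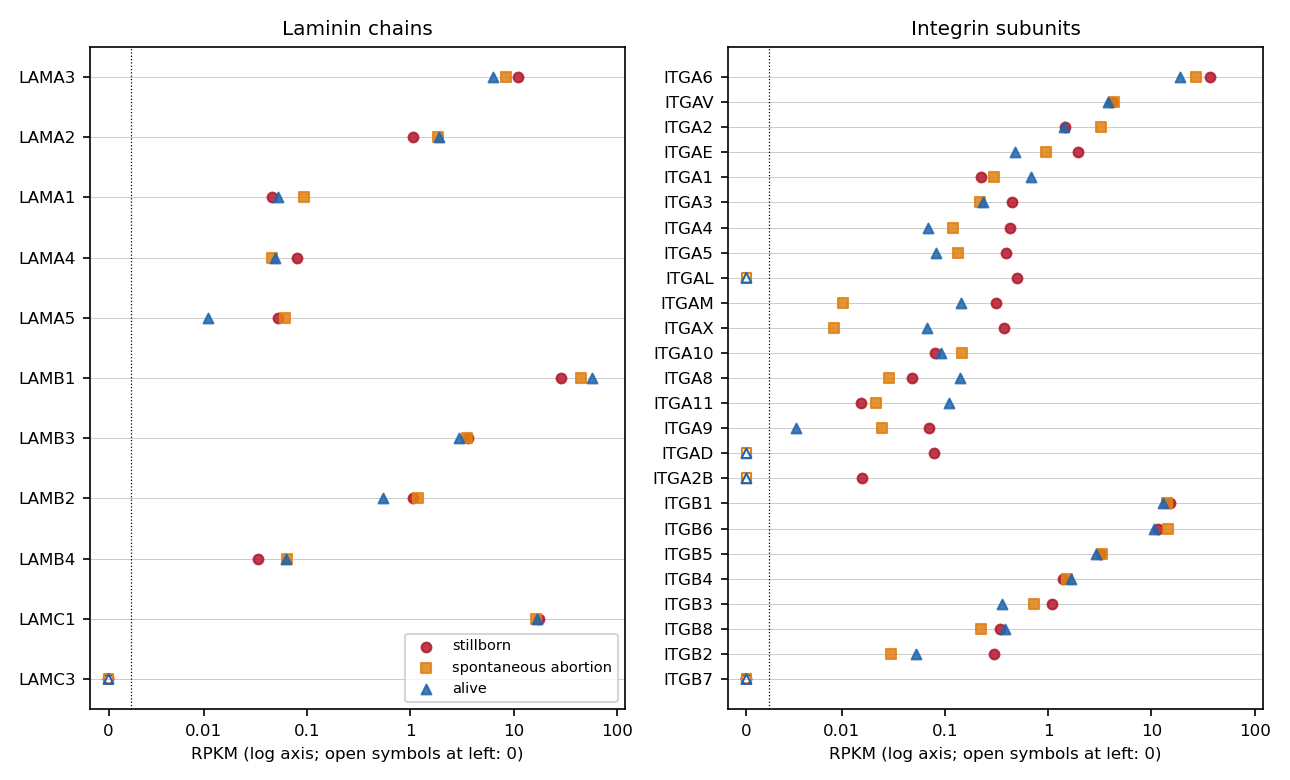
RPKM of laminin chains (left) and integrin subunits (right) on a log axis, 1 symbol per library, with open symbols at the left edge for values of 0. LAMB1, ITGA6, LAMC1, ITGB1 and ITGB6 lie highest in all 3 libraries, and ITGAL, ITGAD and ITGA2B are above 0 in the stillborn library alone.

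LAMB1, the common beta chain of embryonic and vascular laminins, had the highest RPKM of the laminin chains in every library. LAMA3 had more reads than LAMB1 in the stillborn library (7840 against 2966) and after spontaneous abortion (10192 against 7894) and fewer in the alive one (5117 against 6747), and a shorter length for LAMA3 would raise its RPKM and could turn this order. The RPKM of LAMB1 was 28.8 in the stillborn library, 45.4 after spontaneous abortion and 57.4 in the alive one. It was lowest in the stillborn library, 1.78-fold below the alive (1.71 to 1.86), and the spontaneous abortion lay between them, 1.23-fold below the alive (1.19 to 1.27). LAMC1, the gamma chain that usually joins LAMB1, was at 17.6, 16.4 and 16.7. It differed less, at 1.18-fold higher in the stillborn than in the alive library (1.09 to 1.27). That is a log2 ratio of 0.24, which scaling by total assigned reads shifts by -0.16. The ratio of LAMB1 to LAMC1 within a library, which needs no scaling between libraries, was 1.63, 2.77 and 3.43 on the RPKM scale.

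LAMA3 and LAMB3, an alpha and a beta chain of epithelial laminin, went the other way from LAMB1, each highest in the stillborn and lowest in the alive library. LAMA3 was at RPKM 11.0, 8.45 and 6.28, or 1.95-fold (1.89 to 2.02) and 1.38-fold (1.34 to 1.43) above the alive library. LAMB3 was at 3.63, 3.52 and 2.96, or 1.37-fold (1.26 to 1.49) and 1.22-fold (1.13 to 1.32) above it. The chains therefore differed by unequal amounts. LAMA3 over LAMB3 was 3.01, 2.40 and 2.12 on the RPKM scale, so that this ratio was 1.42-fold higher in the stillborn than in the alive library (Wald 95% interval 1.30 to 1.56).

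LAMB1 accounted for 85.9%, 90.5% and 94.2% of the RPKM of the laminin beta chains, and LAMA3 for 89.8%, 80.3% and 75.7% of that of the alpha chains. LAMA2 took up most of the rest of the alpha chains, at 8.74%, 17.8% and 22.9%. Each of these shares ran in the order stillborn, spontaneous abortion, alive or its reverse.

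**Figure D2:**
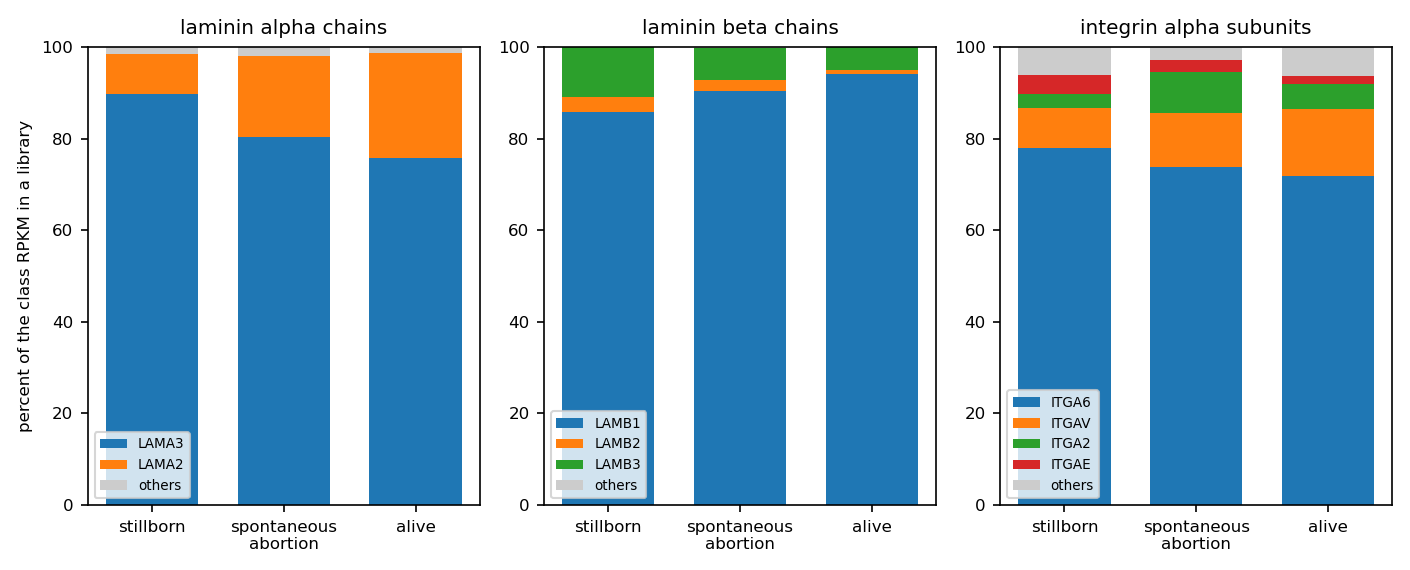
Stacked bars of the percent of RPKM that each gene held within the laminin alpha chains, the laminin beta chains and the integrin alpha subunits, 1 bar per library, with the remaining members of the class in grey. LAMA3 takes 89.8% of the alpha chains in the stillborn and 75.7% in the alive library, and ITGA6 takes 71.9% to 78.0% of the integrin alpha subunits.

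Several laminin chains were low. LAMA2, the alpha chain of muscle and peripheral nerve, was at RPKM 1.07 in the stillborn library, 1.87 after spontaneous abortion and 1.90 in the alive one. It was 1.59-fold lower in the stillborn than in the alive library (1.41 to 1.81) and level between the other libraries, at 1.01-fold (0.918 to 1.11). LAMB2, the beta chain of kidney and neuromuscular basement membranes, was at 1.06, 1.18 and 0.540. Both losses lay above the alive library, by 2.21-fold (1.60 to 3.06) and 2.24-fold (1.68 to 3.02), and the ratio between them included 1 (1.01-fold, 0.800 to 1.29).

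LAMA5, the alpha chain that joins LAMB1 and LAMC1 in most mature epithelia, was nearly missing beside them. It had 21 reads in the stillborn library, 41 after spontaneous abortion and 5 in the alive one, or RPKM 0.0524, 0.0607 and 0.0110. The spontaneous abortion stood 5.69-fold above the alive library (2.25 to 18.5), and this was the only laminin chain apart in any comparison at 30 reads. The stillborn library stood 5.35-fold above the alive (1.96 to 18.2) with 21 reads, and was called apart as well at a minimum of 10 reads. Thinned to the depth of the stillborn library, it no longer held 30 reads in the spontaneous abortion and was not called. LAMA1, the early embryonic alpha chain, was at 0.0460, 0.0938 and 0.0530, and LAMA4, the alpha chain of endothelium and mesenchyme, at 0.0807, 0.0460 and 0.0490. LAMB4, the neighbour of LAMB1 in the gene table, was at 0.0339, 0.0643 and 0.0625. These 3 chains stayed under RPKM 0.1 in every library.

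Endothelial and muscle markers give the setting of LAMA4 and LAMA2. The 6 endothelial markers (PECAM1, CDH5, VWF, KDR, TEK and CLDN5) summed to RPKM 1.19 to 1.51 over the libraries, with CDH5 and CLDN5 at 0 in all 3. The 8 muscle markers summed to 4.57 in the stillborn library, 4.88 after spontaneous abortion and 1.64 in the alive one, with MYH3 and CKM at 0 in all 3. Cardiac actin ACTC1, which was 14.8-fold (8.40 to 28.4) and 15.1-fold (8.67 to 28.6) above the alive library in the losses, led the muscle sum there. Cardiac troponin TNNT2 was 5.0-fold lower after spontaneous abortion than in the alive sample (2.97 to 8.83).

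Of the integrins that bind laminin, ITGA6 dominated. It forms receptors with ITGB1 and, in hemidesmosomes, with ITGB4. Its RPKM was 37.2 in the stillborn library, 26.8 after spontaneous abortion and 18.8 in the alive one. It was thus highest in the stillborn library, 2.21-fold above the alive (2.12 to 2.31), with the spontaneous abortion 1.47-fold above it (1.41 to 1.53). Scaled by total assigned reads, the first ratio was 1.98. ITGA3, the other epithelial laminin receptor subunit, was at 0.448, 0.220 and 0.233, with 76, 63 and 45 reads. It was 2.15-fold higher in the stillborn than in the alive library (1.47 to 3.19) and 2.21-fold higher than in the spontaneous abortion (1.56 to 3.14). The subunit ITGA7 of muscle does not stand under its own name. The entry whose gene ID matches it (LOC103238480) had 1 read in the stillborn and 0 in the other libraries.

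The beta partners of ITGA6 differed less between libraries than it did. ITGB1, the partner of most matrix-binding alpha subunits, was at RPKM 15.1 in the stillborn library, 14.1 after spontaneous abortion and 12.8 in the alive one. ITGB4, the hemidesmosomal beta subunit, was at 1.38, 1.51 and 1.67. ITGB1 lay 1.32-fold higher in the stillborn than in the alive library (1.21 to 1.44), while the interval of ITGB4 included 1 (1.08-fold lower, 0.980 to 1.19). This holds for TMM scaling. The log2 ratio of ITGB4 was -0.11, and scaling by total assigned reads shifts it by -0.16, further below the alive library. ITGA6 over ITGB4 was 27, 17.7 and 11.3 on the RPKM scale, a 2.39-fold difference between stillborn and alive (Wald 95% interval 2.15 to 2.66). ITGA6 over ITGB1 was 2.46, 1.91 and 1.47. The size of such a ratio within a library rests on the gene lengths, 8637 bases for ITGA6 and 28732 for ITGB4. In reads, the stillborn library held 5699 for ITGA6 and 703 for ITGB4.

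Epithelial markers moved beside these genes. The 6 basal and squamous markers summed to RPKM 689 in the stillborn library, 443 after spontaneous abortion and 318 in the alive one, all of them above 0 in every library. Of these, KRT14 was 9.39-fold (8.05 to 11.0) and KRT6A 4.87-fold (4.77 to 4.98) higher in the stillborn than in the alive library, and KRT15 was 6.04-fold lower (5.31 to 6.90). KRT5 was lower in the stillborn library too, at RPKM 49.1, 151 and 151, or 2.75-fold below the alive (2.68 to 2.82), so the order of the sum was that of KRT6A, at 588, 254 and 135. The 6 simple epithelial markers summed to 439, 581 and 721, an order followed by KRT19, KRT18 and KRT8. EPCAM, CDH1 and CLDN4 did not follow it, and EPCAM was at 12.5, 5.69 and 5.97. What part these shifts have in the laminin and ITGA6 values was not tested.

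The collagen-binding alpha subunits, which pair with ITGB1, split. ITGA2, the collagen receptor of epithelia and platelets, was at RPKM 1.46 in the stillborn library, 3.25 after spontaneous abortion and 1.41 in the alive one. It was high in the spontaneous abortion alone, 2.37-fold above the alive (1.99 to 2.84) and 2.05-fold above the stillborn library (1.71 to 2.47). ITGA1, a collagen receptor of mesenchymal cells and the neighbour of ITGA2 in the gene table, had the highest level in the alive library, at 0.225, 0.297 and 0.682. The stillborn library was 2.70-fold (1.74 to 4.32) and the spontaneous abortion 2.23-fold (1.60 to 3.14) below it. ITGA11, the collagen receptor of fibroblasts, followed the same order with 6, 14 and 48 reads. It was apart in both losses, 6.28-fold (2.68 to 17.9) and 4.94-fold (2.68 to 9.70) below the alive library. ITGA10, the cartilage collagen receptor, was at 0.0800, 0.146 and 0.0918, and no interval of its ratios excluded 1.

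Beside ITGA1 and ITGA11, the 7 fibroblast markers summed to RPKM 301 in the stillborn library, 329 after spontaneous abortion and 224 in the alive one, of which LUM alone made up 222, 239 and 158. Single markers differed in direction. PDGFRB, at 0.167, 0.169 and 0.622, was 3.32-fold (1.94 to 6.01) and 3.58-fold (2.29 to 5.71) lower in the losses than in the alive library, as ITGA1 and ITGA11 were, while COL1A2 was at 39.5, 32.4 and 17.6 and DCN at 13.8, 20.9 and 22. What part fibroblast RNA has in these subunits was not tested.

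Among the receptors of RGD-bearing ligands such as fibronectin and vitronectin, ITGAV and its epithelial beta partners were the abundant ones. ITGAV was at RPKM 4.13 in the stillborn library, 4.30 after spontaneous abortion and 3.83 in the alive one. ITGB6, which joins ITGAV to activate TGF-beta on epithelia, was at 11.6, 14.5 and 10.5, and ITGB5, another partner of ITGAV, at 3.27, 3.29 and 2.89. All 3 stayed within 1.5-fold of the alive library. ITGB6 was highest in the spontaneous abortion, 1.42-fold above the alive (1.37 to 1.46) and 1.15-fold above the stillborn library (1.12 to 1.19). ITGB8, a further partner of ITGAV, was at 0.339, 0.226 and 0.379, and was 1.63-fold lower after spontaneous abortion than in the alive sample (1.23 to 2.16).

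ITGB3, which pairs with ITGAV or with the platelet subunit ITGA2B, was graded across the libraries. Its RPKM was 1.09 in the stillborn library, 0.727 after spontaneous abortion and 0.357 in the alive one, or 172, 193 and 64 reads. The losses stood 3.43-fold (2.56 to 4.64) and 2.09-fold (1.57 to 2.82) above the alive library. ITGA2B itself had 1 read in the stillborn and 0 in the other libraries. The platelet markers were close to absent, with GP9 and GP1BA at 0 in all 3 libraries and a sum over the 5 listed markers of RPKM 0.563, 0.112 and 0.144.

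ITGA5, the fibronectin receptor subunit, had 54 reads in the stillborn library, 31 after spontaneous abortion and 13 in the alive one, or RPKM 0.393, 0.134 and 0.0830. It was apart in the stillborn library, 5.29-fold above the alive (2.85 to 10.6), and 3.20-fold above the spontaneous abortion (2.02 to 5.15). ITGA8, a nephronectin receptor of kidney mesenchyme, had 6, 6 and 20 reads and so lay below the limit of 30 in every library. ITGA9, which binds tenascin and osteopontin, had 17, 10 and 1 reads and lay below it as well.

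The leukocyte subunits above 0 were all highest in the stillborn library. ITGB2, the common beta subunit of leukocyte integrins, had 65 reads in the stillborn library, 11 after spontaneous abortion and 13 in the alive one, or RPKM 0.299, 0.0301 and 0.0526. The stillborn library lay 6.37-fold above the alive (3.48 to 12.6) and 10.8-fold above the spontaneous abortion (5.68 to 22.8). ITGAL, the lymphocyte partner of ITGB2, had 33 reads in the stillborn and 0 in the other libraries. With 0 taken as 3 reads in each of these, it was 14-fold higher than in the alive and 20.2-fold higher than after spontaneous abortion. The exact intervals began at 10.8 and 15.5.

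The myeloid partners of ITGB2 were lowest in the spontaneous abortion. ITGAM, of neutrophils and macrophages, had 71 reads in the stillborn library, 4 after spontaneous abortion and 37 in the alive one, or RPKM 0.310, 0.0103 and 0.142. ITGAX, of dendritic cells and macrophages, had 78, 3 and 16 reads, or RPKM 0.370, 0.00843 and 0.0666. Both followed the order stillborn, alive, spontaneous abortion. ITGAM was 32.6-fold (12.2 to 123) and ITGAX 47.7-fold (15.7 to 236) higher in the stillborn library than in the spontaneous abortion. Against the alive library, the stillborn was 2.45-fold higher in ITGAM (1.62 to 3.74) and 6.21-fold higher in ITGAX (3.6 to 11.4), and the spontaneous abortion was 13.3-fold lower in ITGAM (4.79 to 51.4). ITGAD, another macrophage subunit, had 3 reads in the stillborn and 0 in the other libraries. ITGAM, ITGAX and ITGAD are neighbouring paralogs, and reads shared between them cannot be told apart in these values.

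ITGA4, the VCAM1 receptor subunit of lymphocytes and monocytes, had 38 reads in the stillborn library, 18 after spontaneous abortion and 7 in the alive one. It was 6.92-fold (3.05 to 18.4) higher in the stillborn than in the alive library, and 3.87-fold (2.16 to 7.21) higher than after spontaneous abortion. ITGAE, the E-cadherin receptor subunit of intraepithelial lymphocytes, was the most abundant of the leukocyte group, at RPKM 1.94, 0.953 and 0.481. It stood 4.52-fold above the alive in the stillborn (3.24 to 6.41) and 2.04-fold above it in the spontaneous abortion library (1.45 to 2.91), and the losses differed by 2.22-fold (1.75 to 2.80). Its only known partner, ITGB7, had 0 reads in each.

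**Figure D3:**
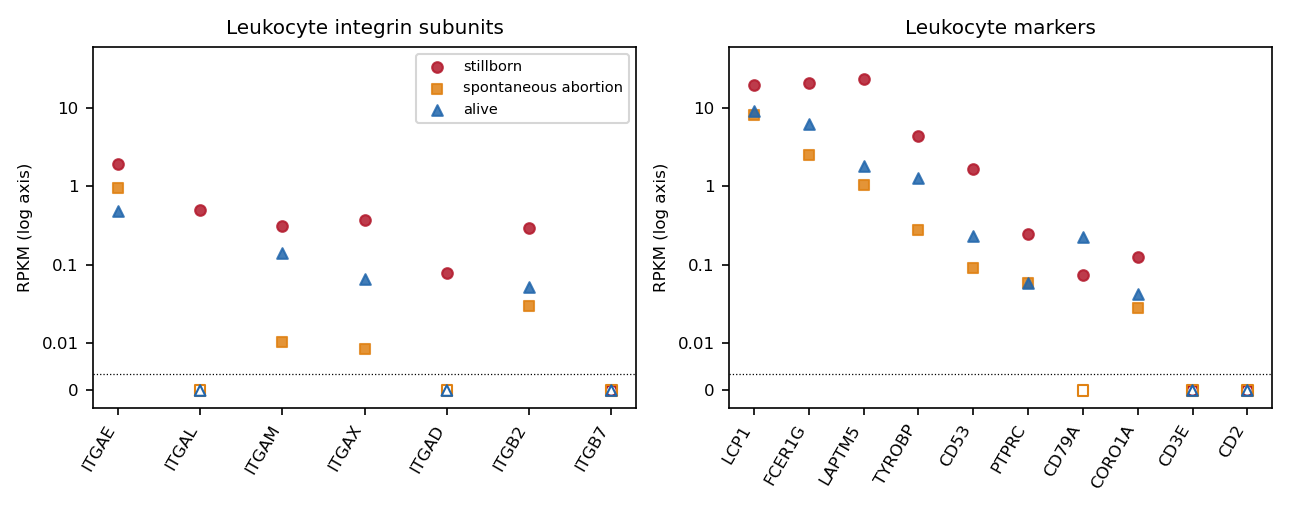
RPKM on a log axis of the leukocyte integrin subunits (left) and of the leukocyte markers (right), 1 symbol per library, with open symbols at the bottom for values of 0. The stillborn library is highest for each subunit above 0 and for 7 of the 8 markers above 0, the exception being CD79A, and ITGAM and ITGAX are lowest in the spontaneous abortion.

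Leukocyte markers, as a sum, were highest in the stillborn library, as was each leukocyte subunit above 0. Of the 10 markers, 8, 7 and 8 were above 0. Their RPKM summed to 70.6 in the stillborn library, 12.2 after spontaneous abortion and 19.2 in the alive one. ITGB2, ITGAM and ITGAX had the same order. ITGAE and ITGA4 did not, and were lowest in the alive library. ITGAE was at RPKM 0.953 after spontaneous abortion and 0.481 in the alive one, and ITGA4 at 0.119 and 0.0687. Between these libraries the ratio intervals of ITGB2 (0.704 to 4.20) and ITGA4 (0.712 to 5.06) included 1. The T cell genes CD3E and CD2 were at 0 in all 3 libraries, and the B cell gene CD79A had 2, 0 and 7 reads. PTPRC, the pan-leukocyte phosphatase, was 4.73-fold (3.16 to 7.28), the tetraspanin CD53 8.23-fold (5.23 to 13.5) and the lysosomal LAPTM5 14.5-fold (11.6 to 18.4) higher in the stillborn than in the alive library. TYROBP, a signalling adaptor, was 17.0-fold (7.82 to 44.1) and FCER1G, an Fc receptor chain, 9.09-fold (7.77 to 10.7) higher in the stillborn than in the spontaneous abortion. The 6 erythroid markers summed to at most 0.196. What part leukocyte RNA has in the integrin values was not tested.

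Counted together, 27 of the 37 members had at least 30 reads in the stillborn or the alive library. Of these, 6 were apart as higher in the stillborn (ITGA4, ITGA5, ITGAE, ITGAL, ITGAX and ITGB2) and 1 as lower (ITGA11). Among all 13500 genes with that many reads, 4.71% were apart as higher and 3.23% as lower. At 2-fold, 12 members were higher, ITGA3, ITGA6, ITGAM, ITGB3 and LAMB2 among those added, and 2 lower, adding ITGA1, where 13.1% of genes were higher and 12.5% lower. No laminin chain was among those apart, and the members apart were low, none above RPKM 2. A low gene passes 30 reads only through the library where it is high, so these counts describe the members and are no support for a difference.

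For the spontaneous abortion against the same alive library, 26 members had 30 reads, of which LAMA5 was apart as higher and ITGA11 and ITGAM as lower. Among the 13857 genes with 30 reads, 2.31% were apart as higher and 1.51% as lower. At 2-fold, 6 members were higher (ITGA2, ITGAE, ITGB3, LAMA5 and LAMB2 among them) and 3 lower (ITGA1, ITGA11 and ITGAM), where 7.69% of genes were higher and 5.72% lower. Since this comparison and that of the stillborn share the alive library, the members named in both are not independent observations.

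Between the losses, 29 members had 30 reads, and ITGAL, ITGAM, ITGAX and ITGB2 were apart as higher in the stillborn library and 0 as lower, beside 2.81% and 1.64% of the 13861 genes. At 2-fold, ITGA3, ITGA4, ITGA5 and ITGAE joined them as higher and ITGA2 was lower, where 7.55% of genes were higher and 7.49% lower.

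**Figure D4:**
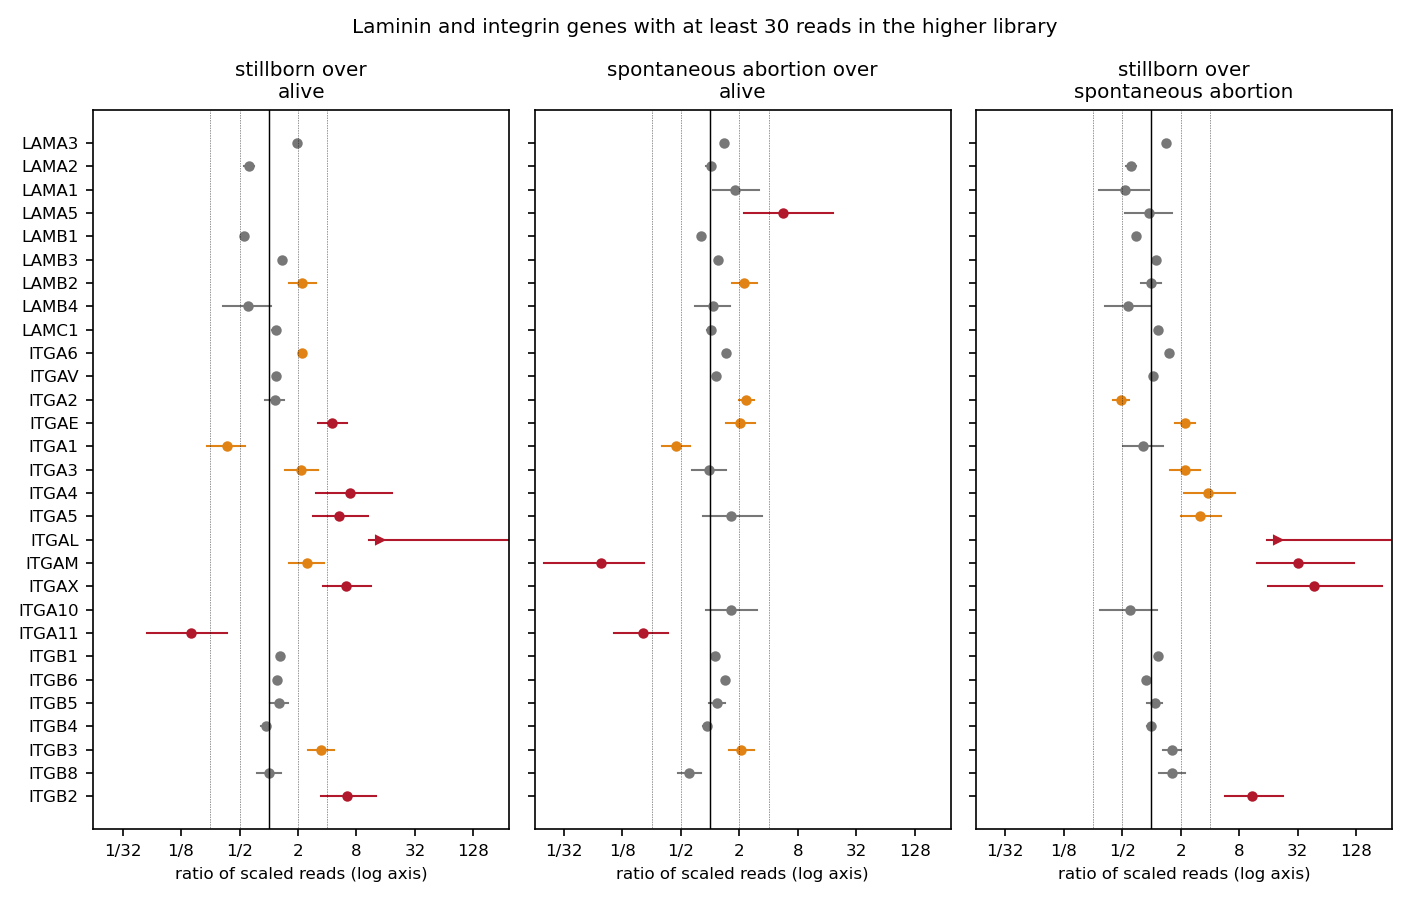
Ratio of TMM-scaled reads between each pair of libraries for members described in the text with at least 30 reads in the higher library, on a log axis, with exact 95% intervals as lines. Red marks members at least 4-fold apart, orange those at least 2-fold apart and grey the rest, dotted lines stand at 2-fold and 4-fold, and arrowheads mark ITGAL, whose lower library held 0 reads taken as 3. ITGAL lies farthest above 1 in stillborn over alive and ITGA11 farthest below, and ITGAX and ITGAM lie farthest above 1 between the losses.

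The median log2 ratio of the 14 members whose mean RPKM reached 1, on the scale of TMM-scaled log2(RPKM + 0.1), was 0.31 for stillborn over alive. It was 0.25 for spontaneous abortion over alive and 0.14 for stillborn over spontaneous abortion. Over all 10229 genes with that mean, the medians were -0.01, -0.01 and -0.02. The pseudocount makes ratios of low genes too small on this scale. Scaling by total assigned reads shifts every log2 ratio by -0.16 in stillborn over alive, by -0.04 in spontaneous abortion over alive and by -0.12 between the losses. Of the 14 members, 11 were above 0 in stillborn over alive, 12 in spontaneous abortion over alive and 9 between the losses, beside 49.2%, 49.6% and 48.1% of all genes. With total assigned reads these counts were 11, 10 and 7, and the medians 0.15, 0.21 and 0.02.

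Other components of the basement membrane were mixed. Of 13 such genes, 5 were at least 2-fold higher and 1 lower in the stillborn than in the alive library, and 5 and 0 in the spontaneous abortion, among 12 with 30 reads in each. Over all genes with 30 reads the shares were 13.1% higher and 12.5% lower, and 7.69% and 5.72% in the spontaneous abortion. NID1, the nidogen that links laminin to collagen IV, was at RPKM 0.707 in the stillborn library, 0.272 after spontaneous abortion and 0.109 in the alive one, 7.26-fold higher in the stillborn than in the alive (3.99 to 14.3). The epithelial collagen IV chains COL4A4 and COL4A6 were 7.22-fold (4.14 to 13.5) and 4.72-fold (4.25 to 5.24) higher there, and COL4A4 was 4.44-fold (2.56 to 8.25) higher in the spontaneous abortion. The more abundant COL4A1, the ubiquitous collagen IV chain, was at 2.50, 2.42 and 3.14, and COL18A1, the source of endostatin, at 9.17, 9.0 and 8.61. PXDN, the peroxidase that crosslinks collagen IV, was at 4.62, 7.55 and 9.56, in the same order as LAMB1.

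Of 6 hemidesmosome and anchoring genes, COL17A1, the transmembrane collagen bound by ITGA6, followed the order of ITGA6. Its RPKM was 2.39 in the stillborn library, 1.26 after spontaneous abortion and 0.317 in the alive one, 8.44-fold (6.96 to 10.3) and 4.07-fold (3.36 to 4.98) above the alive. It was the only gene of the list apart, beside 4.71% of genes with 30 reads higher and 3.23% lower in stillborn over alive. In the spontaneous abortion these shares were 2.31% and 1.51%. At 2-fold, 1 of the 6 was higher and 2 were lower in the stillborn than in the alive library, beside 13.1% and 12.5%. In the spontaneous abortion 1 was higher and 1 lower, beside 7.69% and 5.72%. The plakin DST was at 2.55, 3.53 and 3.82 and the anchoring filament protein LAD1 at 4.44, 4.54 and 6.30, each highest in the alive library. CD151, the tetraspanin that partners laminin-binding integrins and is named here after its values were seen, was 3.47-fold (2.09 to 6.05) and 3.36-fold (2.25 to 5.11) lower in the losses than in the alive library. The plakin PLEC, named here in the same way, was 2.65-fold (2.43 to 2.91) and 1.52-fold (1.43 to 1.62) lower in the losses. Of the laminin receptors outside the integrins, RPSA, also a ribosomal protein, was at 34.9, 27.2 and 37.8, the dystroglycan DAG1 at 0.518, 0.513 and 0.463 and BCAM, a receptor of LAMA5, at 0.0482, 0.0858 and 0.180. None of the 3 was 2-fold apart with 30 reads.

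**Figure D5:**
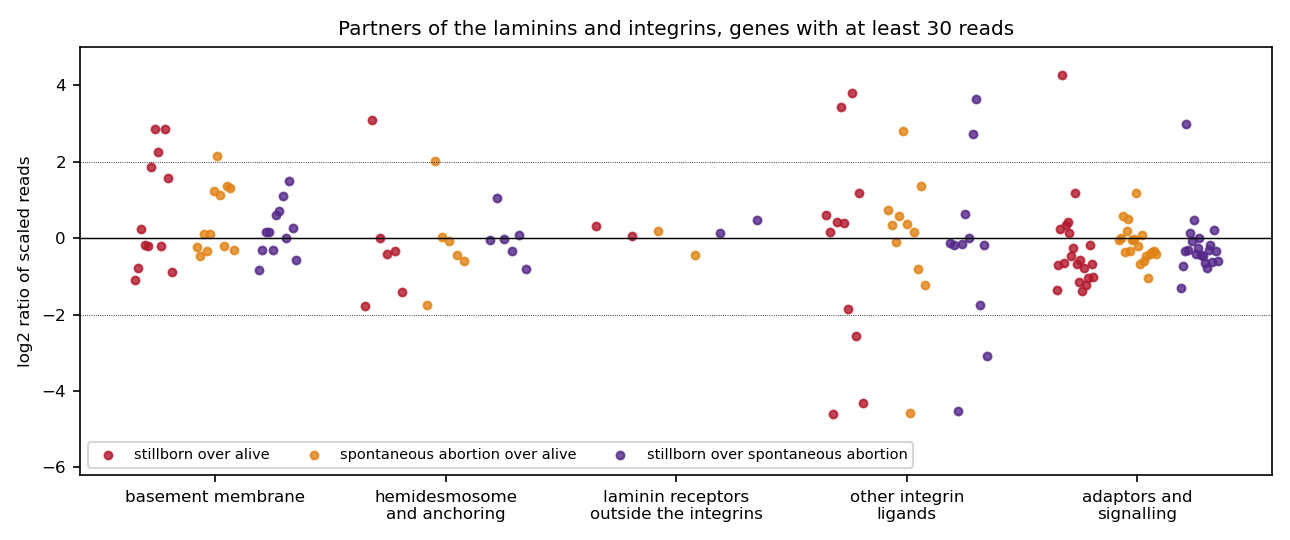
Log2 ratio of TMM-scaled reads for each gene of 5 partner lists with at least 30 reads in the higher library, with 1 colour per pair of libraries and dotted lines at 4-fold. Integrin ligands spread the widest, from FGB and TNC at the bottom to SPP1 at the top in stillborn over alive, and FERMT3 stands alone above the adaptors.

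Of 18 listed ligands, 11 had 30 reads in stillborn over alive, and 2 were apart as higher and 3 as lower, beside 4.71% and 3.23% of all genes with 30 reads. SPP1, the osteopontin bound by ITGAV and ITGA9, was at RPKM 71.1 in the stillborn library, 6.20 after spontaneous abortion and 5.76 in the alive one, or 13.8-fold above the alive in the stillborn (12.7 to 15). ICAM1, the ligand of ITGAL and ITGAM with ITGB2, was 10.8-fold (7.55 to 15.9) and 7.01-fold (4.92 to 10.3) higher in the losses. TNC, the tenascin bound by ITGA9, was 20.0-fold lower in the stillborn than in the alive library (11.3 to 39.1). TGFBI, a matrix protein bound by ITGA3 and ITGAV, was 5.94-fold lower there (5.44 to 6.5), and the fibrinogen chain FGB was 24.3-fold lower (4.05 to 991), with 1 stillborn read. The fibrinogen chains FGA and FGG, named here after their values were seen, did not share this and lay below 30 reads. FGA was 1.52-fold (0.815 to 2.85) and FGG 1.18-fold (0.491 to 2.80) higher in the stillborn than in the alive library, and both intervals included 1. Against the spontaneous abortion, 2 ligands were apart as higher in the stillborn library and 2 as lower, beside 2.81% and 1.64% of genes. The higher ones were SPP1, 12.5-fold (11.7 to 13.4), and POSTN, the periostin bound by ITGAV, 6.58-fold (3.41 to 13.7). TNC was 8.44-fold (4.72 to 16.6) and FGB 22.9-fold (3.89 to 925) lower. POSTN was below the alive library in both losses, by 3.63-fold in the stillborn (2.60 to 5.17) and 23.9-fold in the spontaneous abortion (13.4 to 47.0). Fibronectin FN1, at 28.4, 34.6 and 24.0, and the fibrillin FBN1, at 29.8, 36.7 and 29.9, were among the most abundant and stayed under 2-fold.

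Of 23 listed adaptors and signalling genes that join integrin tails to actin, 21 had 30 reads in stillborn over alive, with 2 at least 2-fold higher and 6 lower, beside 13.1% and 12.5% of all genes with 30 reads. In the spontaneous abortion, 1 of 20 was higher and 1 lower, beside 7.69% and 5.72%. The most abundant were PARVA, the actin-binding parvin, at RPKM 52.9 in the stillborn library, 77.4 after spontaneous abortion and 82.4 in the alive one, the focal adhesion kinase PTK2 at 34.6, 44.9 and 46.6, and the integrin-linked ILK at 23.7, 31.7 and 41.9. All 3 followed the order of LAMB1 and stayed under 2-fold. FERMT3, the kindlin of blood cells that activates ITGB2 integrins, was the only adaptor apart, with 30, 7 and 2 reads, 19.1-fold above the alive library in the stillborn (4.85 to 165).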

How the data were processed

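The authors deposited 1 table per library of RPKM values. Tools named in the submitters' processing notes are STAR, HTSeq and bcl2fastq 2.17. The sources used here do not give their roles, the genome build, annotation, strand setting or RPKM step, and the unit was read from the values. Per the labels' protocols, cDNA was amplified with the Ovation SPIA kit, and no molecular identifiers are named. Copies of the same molecule cannot then be told from separate molecules. Intervals therefore cover counting error of reads only and may be too narrow for that of molecules. Library totals and gene lengths were solved from the RPKM values as the smallest whole numbers that give whole reads. A solution within the rounding of the printed digits was found for 23275 of 23276 genes above 0. Reads are lower bounds where a gene's reads share a common factor, and make up 96.6% to 97.1% of the totals. Recovery and calls were tested on simulated data. There the reads were right for 90.6% of genes above 0 and for 33 of 35 members, and 0 genes came out above their true reads.

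TMM factors and intervals were computed in Python 3.11.15 with scipy 1.17.1. With 1 sample per status no test was run. Members and lists were chosen with earlier results of these data known. One member is counted in sums and totals but not reported here. The other members are accounted for, with ratios for those 2-fold apart with 30 reads, and ratios of other members, and ratios of 2 members within a library, were added after values were seen. Of each partner list, the 3 genes highest in mean RPKM and those apart are named. A symbol was taken by gene ID from the RefSeq table of mChlSab1.0.hap1 for 866 of 17250 LOC names. As the build behind the files is not known, no coordinates are given.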

Additional observations from a re-analysis of the deposited data

How the results depend on the processing

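Depth limits most members that stood 4-fold apart. With a minimum of 100 reads in place of 30, the members apart fell to 1 in stillborn over alive (ITGAE), 0 in spontaneous abortion over alive and 0 in stillborn over spontaneous abortion, because fewer genes enter. The members at least 2-fold apart fell to 5, 5 and 2. With a minimum of 10 reads, 5 members were apart in spontaneous abortion over alive, adding ITGA8 and ITGAX as lower, and 9 in stillborn over alive, adding ITGA9 and LAMA5 as higher. The median log2 ratio of members was 0.15 for stillborn over alive on the scale of total assigned reads, and 0.03 for spontaneous abortion over alive with no filter on RPKM. On total assigned reads ITGA3, ITGA6 and LAMB2 passed below 2-fold in stillborn over alive, and ITGAE in spontaneous abortion over alive, while LAMA1 joined those lower between the losses. Over all members, the one not reported here included, 32 ratios were at least 2-fold apart. None of them changed direction under total reads, median of ratios or thinning. Of the 96 values so obtained, 93 lay within the interval of the main ratio. No paired analysis was possible because each status has 1 sample.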
